A study of Mus musculus with 8 samples.

Results

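Cycling tumor lymphatic endothelial cells were the cells of the lymphatic (LEC) sort whose RNA was rich in transcripts of cell division. A cell was a member if it had fewer than 20 unique molecular identifiers (UMIs, each marking 1 captured molecule) of the pigment genes Dct, Tyrp1, Pmel and Tyr together, and at least 1 UMI of Prox1, Lyve1 or Mmrn1. In addition, Mki67, Top2a, Ccnb1, Ccnb2, Cdk1, Birc5, Cenpf, Cenpa, Ube2c and Tpx2 had to make up at least 15 of every 10000 UMIs. Of 4407 cells in the LEC sort 4019 passed both gates, and 146 of these were cycling, which is 3.63% (95% exact Clopper-Pearson interval 3.08 to 4.26%). The members were thus selected on measured values. They were set against 3417 resting LEC, which passed the same gates and had under 2 per 10000. The name resting refers to those division genes alone, as no limit was set on genes of DNA replication. The other 456 gated cells lay between the thresholds. The series holds 7635 cells in all.

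The cells came from MT-ret melanoma, grown from tumor fragments placed on the flank of C57BL/6N mice. From 10 such mice, 10000 blood endothelial cells (BEC) and 10000 LEC were sorted, and the labels list 4 droplet libraries for each sort. The labels give no age, treatment or further genotype, and all cells analysed came from tumors. The column names do not separate the libraries or the mice, so each sort was 1 pooled sample and no test between classes of cells was possible. Levels are UMIs summed over a class and scaled to the total UMIs of the class (CPM), with exact Poisson intervals, and ratios have exact conditional binomial intervals. All intervals are 95% intervals, and counting error is the one source of error in them.

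A dividing cell first licenses its replication origins and, in S phase, copies its DNA, for which genes driven by E2F factors supply helicases, polymerases and nucleotides. Before mitosis a second set of genes, held down in resting cells by the DREAM complex and switched on by B-MYB and FOXM1, supplies cyclin B, the kinase Cdk1, kinetochores and the spindle. The anaphase-promoting complex with Cdc20 then destroys the mitotic cyclins, and the enzyme Ube2c loads the ubiquitin. Lymphatic endothelium in adult tissue divides little, and its growth in tumors is known as lymphangiogenesis, driven largely through the receptor Flt4 (VEGFR-3) in cells that keep the lymphatic factor Prox1.

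The promoters of the genes that mark these cells carry short elements known from this second set of genes, and a few are shown so that the letters can be seen beside the levels. Each run is the 150 bases before the RefSeq start on GRCm38.p6, written 5′ to 3′. Capitals mark the cell cycle genes homology region (CHR; TTTGAA or TTTAAA), the CCAAT box and the E2F-type letters TTCCCGC or TTGGCGC, each searched on both strands, so that ATTGG is a CCAAT box on the other strand. TTGGCGC and CCAAT can overlap when they lie on opposite strands. Top2a, Ccnb2, Cdk1 and Mki67 belong to the rule, Cdc20 is among the genes with the highest ratios, and Mcm6, a subunit of the replicative helicase, stands for the S phase genes.
Top2a (chr11:99024190-99024339, minus strand): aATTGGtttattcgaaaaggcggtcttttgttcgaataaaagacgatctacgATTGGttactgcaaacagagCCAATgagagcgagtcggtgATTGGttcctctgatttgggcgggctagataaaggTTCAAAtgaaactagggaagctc
Ccnb2 (chr9:70421555-70421704, minus strand): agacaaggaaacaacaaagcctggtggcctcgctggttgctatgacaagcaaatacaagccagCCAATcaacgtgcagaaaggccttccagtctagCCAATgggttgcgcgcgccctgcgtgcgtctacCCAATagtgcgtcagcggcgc
Cdk1 (chr10:69352913-69353062, minus strand): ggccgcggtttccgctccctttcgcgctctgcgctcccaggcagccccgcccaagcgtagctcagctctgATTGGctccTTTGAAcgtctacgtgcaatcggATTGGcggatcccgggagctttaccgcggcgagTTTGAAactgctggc
Mki67 (chr7:135716380-135716529, minus strand): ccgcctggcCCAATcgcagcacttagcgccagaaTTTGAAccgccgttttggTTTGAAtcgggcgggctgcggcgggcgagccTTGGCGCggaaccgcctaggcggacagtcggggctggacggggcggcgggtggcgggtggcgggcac
Cdc20 (chr4:118437344-118437493, minus strand): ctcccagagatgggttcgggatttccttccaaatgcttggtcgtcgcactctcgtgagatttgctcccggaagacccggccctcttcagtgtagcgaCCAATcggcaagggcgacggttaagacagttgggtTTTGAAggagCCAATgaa
Mcm6 (chr1:128359706-128359855, minus strand): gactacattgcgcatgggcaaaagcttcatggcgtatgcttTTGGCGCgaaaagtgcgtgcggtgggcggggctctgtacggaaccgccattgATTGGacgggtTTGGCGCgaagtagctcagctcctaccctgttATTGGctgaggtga

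In Cdk1 a CHR began 15 bases before the start and in Cdc20 18 bases before it, in each case downstream of a CCAAT box. Mcm6 had E2F-type letters 109 and 46 bases before its start and no CHR in the 300 bases searched (250 before and 50 after the start). Of the 10 rule genes 9 had a promoter in the RefSeq table. In the 300 bases all 9 held a CHR and 8 a CCAAT box. From 100 bases before to 50 after the start, 8 held a CHR and 7 a CCAAT box, against 12.8% and 23.4% of all promoters. In Ccnb2 a CHR began 167 bases before the start and another at base 5 after it, so the run shown holds none. Over 73 promoters matched to 66 of the 85 genes of the mitotic lists, 63.0% held a CHR and 50.7% a CHR with a CCAAT box, against 27.6% and 10.7% of all 32851 promoters. Of promoters of measured genes 19.2% held a CHR. Over 67 promoters of the S phase lists the shares were 26.9% for the CHR and 43.3% for the E2F-type letters. Those letters were in 6.81% of all promoters and 12.8% of those of measured genes. They were also in 17.8% of promoters of the mitotic lists. A CCAAT box was in 58.2% of S phase list promoters and 37.4% of all promoters. Outside the rule and the cell cycle lists, 315 promoters of genes at least 2-fold higher in cycling LEC held a CHR with a CCAAT box in 14.6% of cases, and promoters of all measured genes in 7.52%. Of 293 promoters of genes at least 2-fold lower 5.80% held both. These matches describe letters and not binding.

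The rule genes marked the members strongly, as they had to, and are described without any test. Members had 9 to 372 UMIs of these genes (median 79.5) and a median of 8 of the 10 genes detected; 39 cells had all 10 and 6 cells had 3 or fewer. The share ran from 15.1 to 172.6 per 10000 with a median of 46.0. Just inside the threshold lay cells at 15.1, 16.1 and 16.3 per 10000, and just outside it cells at 14.9, 13.9 and 13.8. In 13 members 1 gene gave the majority of these UMIs.

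**Figure D1:**
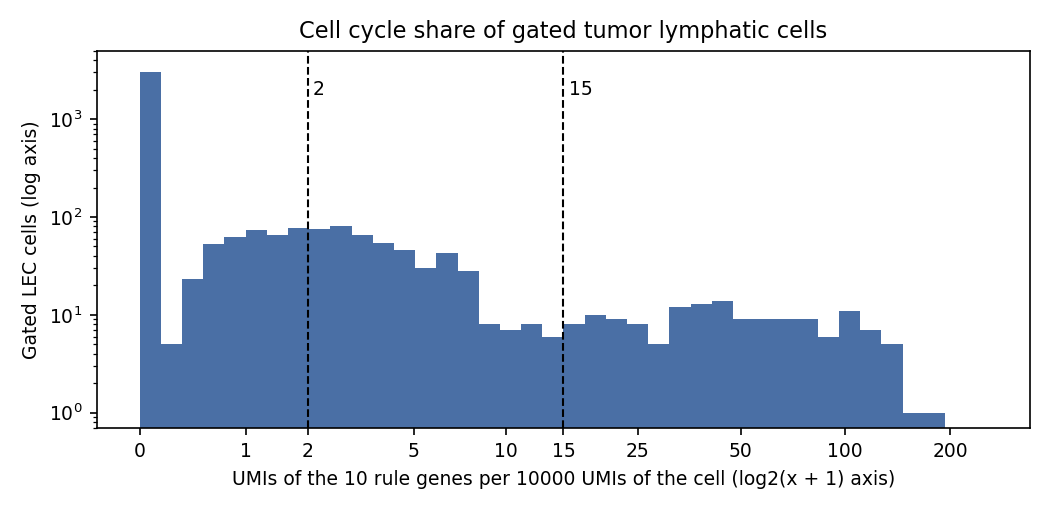
Number of gated LEC cells (log axis) by UMIs of the 10 rule genes per 10000 UMIs of the cell, with dashed lines at the thresholds of 2 and 15. Most of the 4019 cells lie at 0, counts are low just below 15, and the 146 members spread from 15.1 to 172.6.

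The ubiquitin-conjugating enzyme Ube2c and the survivin gene Birc5, a part of the chromosomal passenger complex, were the most abundant of the rule genes, at 882 CPM (849 to 917) and 868 CPM (835 to 903). In resting LEC they were at 1.64 and 1.42 CPM. Ube2c ranged from 0 to 98 UMIs per member (median 10.5) and Birc5 from 0 to 59 (median 15). The mitotic cyclin Ccnb2 had a UMI in 131 of the 146 members (median 9.5, highest 52), and Ccnb1 in 101 (median 4, highest 42). The centromeric histone Cenpa (median 10 UMIs) and the kinase Cdk1 (median 9) were found in 121 and 118 members. The topoisomerase Top2a was found in 100 members (median 8, highest 42), the kinetochore gene Cenpf in 116 (median 6), the spindle assembly factor Tpx2 in 112 (median 3) and the proliferation antigen Mki67 in 91 (median 2, highest 15). Mki67, the classical marker, was thus detected in 62.3% of members and in 0.468% of resting LEC, at median depths of 17477 and 10479 UMIs. When each gene in turn was dropped from the rule and the members were chosen by the other 9, its own ratio of cycling to resting cells still ranged from 45.2 (Cenpa) to 265 (Ccnb1), with 132 to 145 members.

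Lymphatic genes were detected in most or many members, some of them in a smaller share than in resting LEC. At 5000 UMIs per cell, Lyve1, the lymphatic hyaluronan receptor, had a UMI in 92.5% of cycling and 92.4% of resting LEC, against 1.60% and 0.972% of cycling and resting BEC. Prox1, the master factor of the lineage, was found in 49.3% and 52.4%, and the chemokine Ccl21a in 99.3% and 99.2%. Mmrn1 was found in 83.6% of cycling and 88.4% of resting LEC, Flt4 in 49.3% and 62.6%, Reln in 39.7% and 45.5% and Pdpn in 67.1% and 65.9%. Pan-endothelial Egfl7 was found in 100% of members and Pecam1 in 69.9%. The blood endothelial receptor Flt1 was found in 4.79% of cycling and 2.49% of resting LEC and in 89.3% of cycling BEC. Prox1, Lyve1 and Mmrn1 were also used by the gate. Median depths were 17477 UMIs in cycling LEC, 10479 in resting LEC, 26972 in cycling BEC and 19190 in resting BEC before thinning. Mki67, Top2a and Cdk1 belong to the rule, so their presence says nothing more of the label.

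Markers of other cell types were summed in both classes. The 10 blood endothelial markers summed to 1121 CPM in cycling and 1396 CPM in resting LEC. For the 7 of them at a mean of 10 CPM or more, the median log2 ratio of cycling to resting was 0.18. After thinning, Plvap was found in 53.4% of cycling and 65.3% of resting LEC, and Podxl in 21.9% and 32.5%. Flt1, Aqp1, Aplnr, Cd93, Nrp1, Cd36 and Col15a1 were found in a larger share of members. Aqp1 was found in 27.4% and 19.7%, Aplnr in 3.42% and 0.732%, Cd93 in 4.11% and 2.25% and Nrp1 in 2.74% and 1.20%. Esm1 was nearly level, at 4.11% and 4.01%. The lower sum therefore does not hold for each marker. More UMIs of the 10 markers than of 6 lymphatic genes were held by 16 of 146 members (10.96%) and 341 of 3417 resting cells (9.98%). The 10 melanocytic markers summed to 119.6 and 183 CPM, the 5 pan-leukocyte markers to 4.45 and 5.81 CPM, and the 7 mural markers to 20.2 and 42.9 CPM. The gate limited the pigment genes Dct, Tyrp1, Pmel and Tyr in both classes, so the melanocytic levels are set in part by it. Lymphocyte markers summed to 1.03 and 1.88 CPM, keratinocyte markers to 15.8 and 7.90 CPM and erythroid markers to 16.4 and 18.7 CPM. In the members 2 of the 5 pan-leukocyte, 5 of the 7 mural and 3 of the 6 fibroblast markers were at 0 UMIs, among them Ptprc, Rgs5, Cspg4 and Col3a1. After thinning, Ptprc was found in only 0.0585% and Rgs5 in 0.322% of resting LEC. A level of 0 for Ptprc and Rgs5 in 146 members therefore says little. The sum of the fibroblast list, 224 against 213 CPM, was nearly all Dcn, of which 1 member held 35.9%. Macrophage markers summed to 66.8 and 77.6 CPM; Mrc1, which was 2.47-fold higher in cycling LEC, is also made by lymphatic endothelium. No doublet caller was run, and members had 1.67-fold the median UMIs of resting LEC; the part of droplets with more than 1 cell in the results was not tested. Of 34 cell barcodes found in both sorts 0 belonged to members. The median mitochondrial share was 3.06% in members and 3.17% in resting cells.

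Cycling and resting LEC were compared to describe the rest of the transcriptome of these cells. Of 7718 genes at a mean of 10 CPM or more over the 2 classes, 515 (6.67%) were at least 2-fold higher in cycling cells and 309 (4.0%) at least 2-fold lower, and the median log2 ratio was -0.0072. The classes were chosen on genes of the same contrast, so these are descriptions and nothing is read from the counts. Of 295 genes in 12 cell cycle lists 245 were measured, 187 were higher and 1, the G1 kinase Cdk6, was lower. The split was 2303 higher and 95 lower when UMIs per cell were compared without scaling to depth.

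Mitotic genes stood furthest from resting cells, a ranking set in part by the rule, whose genes are mostly mitotic. All 17 measured genes of mitotic entry (of 19 listed), 28 of 29 kinetochore genes (of 31) and all 32 spindle and cytokinesis genes (of 35) were at least 2-fold higher, with median log2 ratios of 4.84, 4.61 and 5.09. The summed level of the spindle list was 3526 CPM in cycling and 71.4 CPM in resting LEC. Outside the rule, the highest ratios were those of Fam64a, Hmmr, Pbk, Ccna2, Nusap1, Kif23, Plk1, Prc1, Cdca3, Nuf2, Cdc20 and Mxd3. Fam64a, a regulator of chromosome alignment, was at 278 CPM (259 to 297) against 1.08 CPM (0.791 to 1.45). Hmmr, a spindle protein that also binds hyaluronan, was at 181 CPM against 0.386 CPM, a ratio of 470 (287 to 829). The mitotic kinase Plk1 was at 192 against 0.940 CPM, Ccna2 (cyclin A) at 252 against 1.33 CPM and the microtubule bundler Prc1 at 356 against 2.87 CPM. Mxd3, a partner of Max, was at 151 against 0.892 CPM.

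The list of the anaphase-promoting complex was split between the core enzyme and its partners. Of 18 measured genes 6 were higher: the activators Cdc20 and Fzr1, the inhibitor Fbxo5, the ubiquitin-chain enzyme Ube2s and the Cdk-binding Cks1b and Cks2. Cdc20 was at 640.4 CPM (612 to 670.1) against 6.80 CPM (6.03 to 7.64), and Ube2s, already at 289.9 CPM in resting cells, reached 1512 CPM. The measured core subunits Anapc1, Anapc2, Anapc4, Anapc5, Anapc7, Anapc10, Anapc11, Anapc13, Cdc16, Cdc23 and Cdc27 were within 2-fold, from -0.06 to 0.74 on the log2 scale. Securin (Pttg1), which the complex destroys, was at -0.34. The names from this list other than Cdc20, Ube2s, Cks1b and Cks2, and those of E2f and cyclin E genes, were picked after their values had been seen.

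Genes of the DNA replication lists, on which neither class was chosen, were higher by smaller ratios. Of 16 licensing genes 15, of 32 replication fork genes 28 and of 18 nucleotide genes 11 were at least 2-fold higher, with medians of 2.50, 2.49 and 1.49. The helicase subunit Mcm6 was at 121 against 29.4 CPM, a ratio of 4.11 (3.64 to 4.63), and the licensing inhibitor Gmnn at 166 against 21.0 CPM. Rrm2, the S phase subunit of ribonucleotide reductase, was at 386 against 4.12 CPM, and the PCNA-binding gene 2810417H13Rik (Pclaf) at 810.4 against 7.88 CPM, 103-fold higher (91.6 to 116). Thymidylate synthase (Tyms) was 5.84-fold higher. The purine genes Impdh2 and Nme1 were 1.64-fold and 1.54-fold higher and did not reach 2-fold.

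Among chromatin genes the histone variant H2afz reached 3702 CPM against 575 CPM, and Hmgb2 1223 against 81.9 CPM. Of 17 condensin and cohesin genes 11 were higher; Smc2 and Smc4, the core of condensin, were 12.02-fold and 4.60-fold higher, and the cohesin subunit Smc1a 1.82-fold. Of 31 replication-dependent histone genes 4 were measured and 2 were higher, Hist1h1b and Hist1h4i. Most such transcripts lack the poly(A) tail that this kit captures. Stathmin (Stmn1), which takes microtubules apart, was 20.9-fold higher (20.3 to 21.6), Tuba1b 5.597-fold and Tubb5 4.28-fold, while Tuba1a was 1.502-fold higher. Tubulins, histones and HMG genes have near-identical copies and their values are uncertain.

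The G1 machinery was uneven. The D cyclins that link growth signals to division were within 2-fold, Ccnd1 at 113 CPM in cycling and 154 CPM in resting LEC and Ccnd2 at 98.0 and 144 CPM, and their kinase Cdk4 was 1.72-fold higher. The E cyclins were higher, Ccne1 at 46.3 against 1.61 CPM and Ccne2 at 49.3 against 3.20 CPM, as were E2f1 (5.64-fold), E2f8 (20.8-fold) and Rbl1 (6.01-fold). The CDK inhibitors went different ways. Cdkn2c (p18) was at 239 against 37.0 CPM, 6.47-fold higher (5.91 to 7.08), Cdkn2d (p19) 8.54-fold higher (7.84 to 9.29) and Cdkn2a 3.90-fold higher (3.003 to 5.005). Cdkn1a (p21), the main p53 target among them, was at 261 and 287 CPM, and Cdkn1b (p27) at 37.3 and 29.3 CPM. Cdkn1c and Cdkn2b were 1.46-fold and 1.71-fold lower, at 14.4 and 8.57 CPM. Of 16 p53 target and growth arrest genes 1 was higher and 2 were lower, beside 6.67% and 4.0% of all genes.

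**Figure D2:**
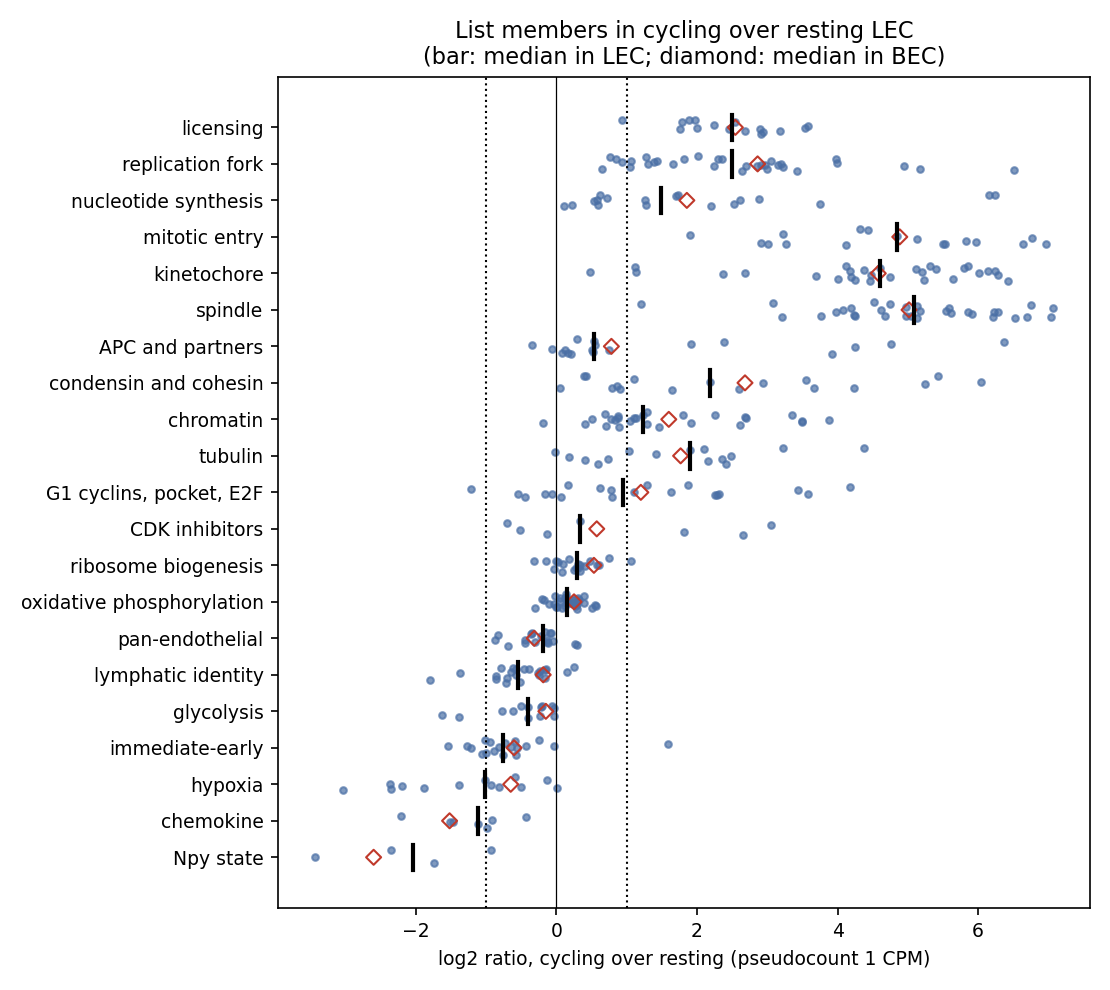
Log2 ratio of cycling over resting LEC (pseudocount 1 CPM) for every measured member of the lists named, 1 point per gene, with the LEC median as a bar and the BEC median as a diamond; dotted lines mark 2-fold. Mitotic lists have medians of 4.61 to 5.09 and the licensing list of 2.50, while the hypoxia, chemokine and Npy state lists lie mostly below 0.

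Among the genes lowest in cycling LEC were Trf, Adm, Mt1, Lgals3, Fgl2, Clca3a1, Pgf, Errfi1, Nmb, Ier3 and Lrg1. The transferrin gene Trf was at 34.95 CPM (28.5 to 42.4) against 211 CPM (207 to 216). Adrenomedullin (Adm), a hypoxia-induced peptide that acts on lymphatic growth, was at 61.7 against 322 CPM, 5.21-fold lower (4.50 to 6.08). The metallothionein Mt1 was 3.73-fold lower. Fgl2, a secreted fibrinogen-like protein rich in LEC, was at 310.1 against 1081 CPM with a UMI in 65.1% of members and 88.4% of resting cells. Pgf was found in a larger share of members (37.0% and 28.0%). Lgals3 (42.5% and 42.1%) and Mt1 (30.8% in each) were found in similar shares. The other genes named here were found in a smaller share of members. These shares are without thinning.

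Of 13 measured hypoxia genes 7 were at least 2-fold lower in cycling LEC and 0 higher, with a median of -1.01, where 4.0% of all genes tested were lower and 6.67% higher. The list summed to 809 against 1679 CPM. At a minimum mean of 50 CPM 3 hypoxia genes were lower. Bnip3, a mitophagy receptor picked after its value was seen, was at 11.3 against 100.2 CPM. Of 13 glycolysis genes Slc2a1 and Aldoa were lower, Aldoa at 442 against 1158 CPM, and Gapdh was at 521 against 534 CPM. The count of lower glycolysis genes was 8 without cells with 3 or more blood endothelial UMIs, 4 at a minimum mean of 1 CPM, 1 at 50 CPM and 0 in UMIs per cell. Of 33 oxidative phosphorylation genes 0 passed 2-fold either way. Of the 4 markers of the Npy state, which shares Ndufa4l2 and Egln3 with the hypoxia list, 3 were at least 2-fold lower, and Egln3 was 1.94-fold lower. Npy was 11.05-fold lower (9.15 to 13.5), Ndufa4l2 5.47-fold and Pgf 3.36-fold. Without the cells that had at least 2 UMIs of Npy, Ndufa4l2, Pgf and Egln3 after thinning, 4 hypoxia genes were lower. The log2 ratios of Npy, Ndufa4l2 and Pgf turned to 0.40, 0.82 and 0.91. Those genes also set which cells were removed, so their turned ratios describe what the filter left.

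Of 19 immediate-early and stress genes 6 were lower and Mycn was higher. The transcription factor Junb was at 1157 against 2691 CPM and Jun at 1311 against 2638 CPM, and Fos was 1.75-fold lower. The count of lower genes was 3 with median-of-ratios size factors and 3 with a threshold of 10 per 10000 in place of 15, and it was 0 in UMIs per cell. Of 20 measured genes of ribosome biogenesis 1, Nop58, was higher, and the nucleolar Npm1 was 1.24-fold higher. Of 15 interferon genes 1 was lower. These counts stand beside 6.67% of all genes higher and 4.0% lower. Of 7 chemokine and scavenger genes 4 were lower, among them Ccl2 at 406 against 884 CPM and Ccl7 at 98.7 against 275 CPM, but 1 member held 53.2% of the Ccl2 UMIs of cycling cells and 55.6% of those of Ccl7. The count of lower chemokine genes was 1 with the threshold of 10, 1 in UMIs per cell, 2 at a minimum mean of 50 CPM and 2 when the rule was applied after thinning to 5000 UMIs.

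As a share of all RNA, most lymphatic identity genes were lower in cycling cells, but within 2-fold. Of 22 measured, 20 had a log2 ratio under 0 (median -0.55), against a median of -0.0072 over all genes, and 2, Fgl2 and Cp, passed 2-fold. Lyve1 was at 1555 against 2031 CPM, Mmrn1 at 649 against 895 CPM, Prox1 at 181 against 270.1 CPM and Flt4, the receptor for VEGF-C, at 208 against 339.5 CPM. Ccl21a was at 15743 against 25881 CPM, and its near-identical copies make the value uncertain. With Ccl21a included, these genes took 2.097% of the UMIs of cycling and 3.36% of those of resting LEC. The 10 rule genes took 0.520% of the UMIs of cycling cells. Of 18 pan-endothelial genes 0 passed 2-fold, with Cldn5 1.83-fold lower and Egfl7 1.23-fold higher. Per cell the direction turned: the 6 lymphatic marker genes had a mean of 61.9 UMIs in cycling and 50.9 in resting LEC (medians 57 and 45), and 1 identity gene was at least 2-fold lower. Without cells with 3 or more blood endothelial UMIs 4 were lower in CPM. Levels in CPM are relative to all captured RNA, and more RNA of other genes cannot be told apart by them from less RNA of these.

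The members were not alike in the phase of the cycle they recorded. Sums that shared no gene with the rule were used: an S phase share from the licensing, fork and nucleotide lists and a mitotic share from the mitotic entry, kinetochore and spindle lists. A cell was called S-high or mitotic-high above the 99th percentile of resting LEC, which was 66.4 and 17.5 per 10000, a definition chosen after the data were seen. Of the 146 members 60 were both S-high and mitotic-high, 78 were mitotic-high alone, 0 were S-high alone and 8 were neither. Of the 3417 resting LEC 6 were both, 29 S-high alone and 29 mitotic-high alone, with S phase shares up to 170 per 10000. Within 20% of the cuts lay 20 and 6 members. The 0 members that were S-high alone are set in part by the rule, whose genes are mostly mitotic. Between 5 and 15 per 10000, outside the members, 24 of 135 gated cells were S-high, 5 of them S-high alone. Across the 146 members the S phase and mitotic shares had a Spearman rho of 0.27, given as a description of cells that share a library and a depth.

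**Figure D3:**
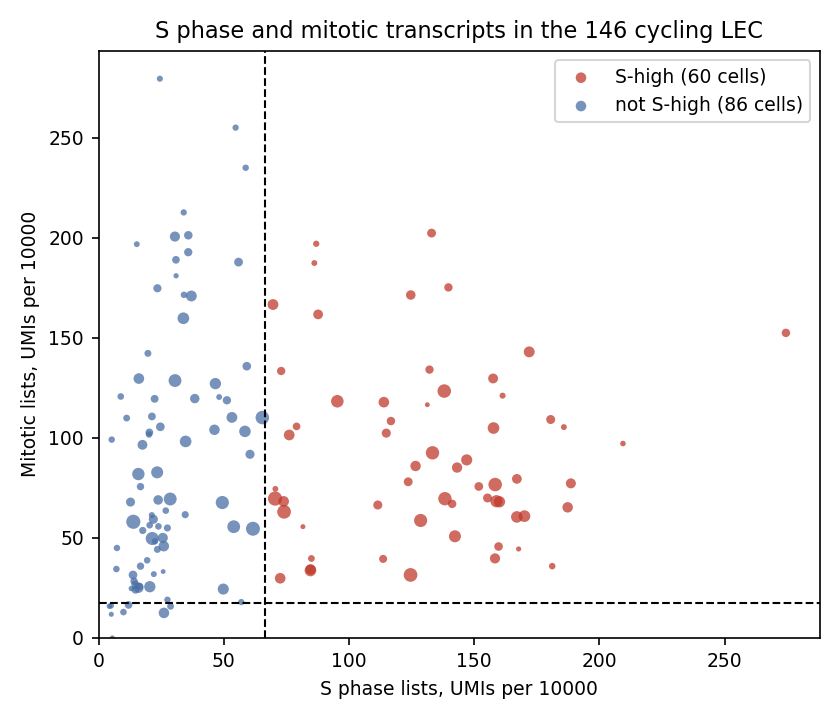
Each point is 1 of the 146 cycling LEC, by UMIs of the S phase lists (x) and of the mitotic lists (y) per 10000 UMIs of the cell, with point area by total UMIs and dashed lines at 66.4 and 17.5. The 60 S-high cells all lie above the mitotic line, and 8 cells lie below it.

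The S phase level did not follow the rule share in step. Its sum was 1826 CPM in gated LEC under 2 per 10000 (3417 cells), 2170 CPM from 2 to 5 (321 cells), 5013 CPM from 5 to 15 (135 cells), 9484 CPM from 15 to 40 (63 cells) and 6233 CPM at 40 or more (83 cells). The S phase share of the median cell in these bins was 15.9, 16.4, 18.3, 72.5 and 35.8 per 10000. From 5 to 15 the median cell was thus near that of resting LEC, and 24 of the 135 cells were S-high. The summed S phase level was highest in the members with the lower rule shares. The mitotic level, in contrast, was 504, 595, 1344, 5461 and 11801 CPM in the same bins. The bins were made from the rule genes, which are mostly mitotic, so this rise is set in part by the bins. S-high cells were 33 of the 63 members under 40 and 27 of the 83 above.

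Within the members, the rule genes split by the S phase share. Every member had passed a threshold on the sum of these genes, so their levels here are set in part by the rule. Top2a was at 604 CPM in the 60 S-high members and 361 CPM in the other 86, and Mki67 at 162 and 124 CPM. Cdk1 was at 574 and 586 CPM and Birc5 at 854 and 881 CPM, nearly level. Other rule genes, and Cdc20, were lower in S-high members. Cenpa was at 250.2 and 935 CPM, Ccnb1 at 168 and 459 CPM, Ccnb2 at 357 and 850.2 CPM, Ube2c at 570.1 and 1162 CPM, and Cdc20 at 293 and 952 CPM. Of the 32 spindle genes measured here 8 were at least 2-fold lower in S-high members and 1 was higher, while of 18 mitotic entry genes 4 were lower and 5 higher and of 31 kinetochore genes 1 was lower and 6 higher, against 6.56% of all 7561 genes lower and 7.72% higher. Cdkn3 was at 85.6 against 238 CPM and Pbk at 499 against 205 CPM. Outside the S phase lists that set the split, Ccne1 was at 97.2 CPM in S-high members and 0.649 CPM in the others, and E2f1 at 65.3 and 3.90 CPM. S-high members had a median of 22219 UMIs against 13967, and 10 of the 60 had more blood than lymphatic marker UMIs against 6 of the 86. The blood endothelial list summed to 1455 and 822 CPM, with 4 of 7 measured genes at least 2-fold higher in S-high members, and its part in the split was not tested. Without those 16 cells the levels were 607 and 384 CPM for Top2a, 256 and 942 CPM for Cenpa and 308 and 968 CPM for Cdc20.

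**Figure D4:**
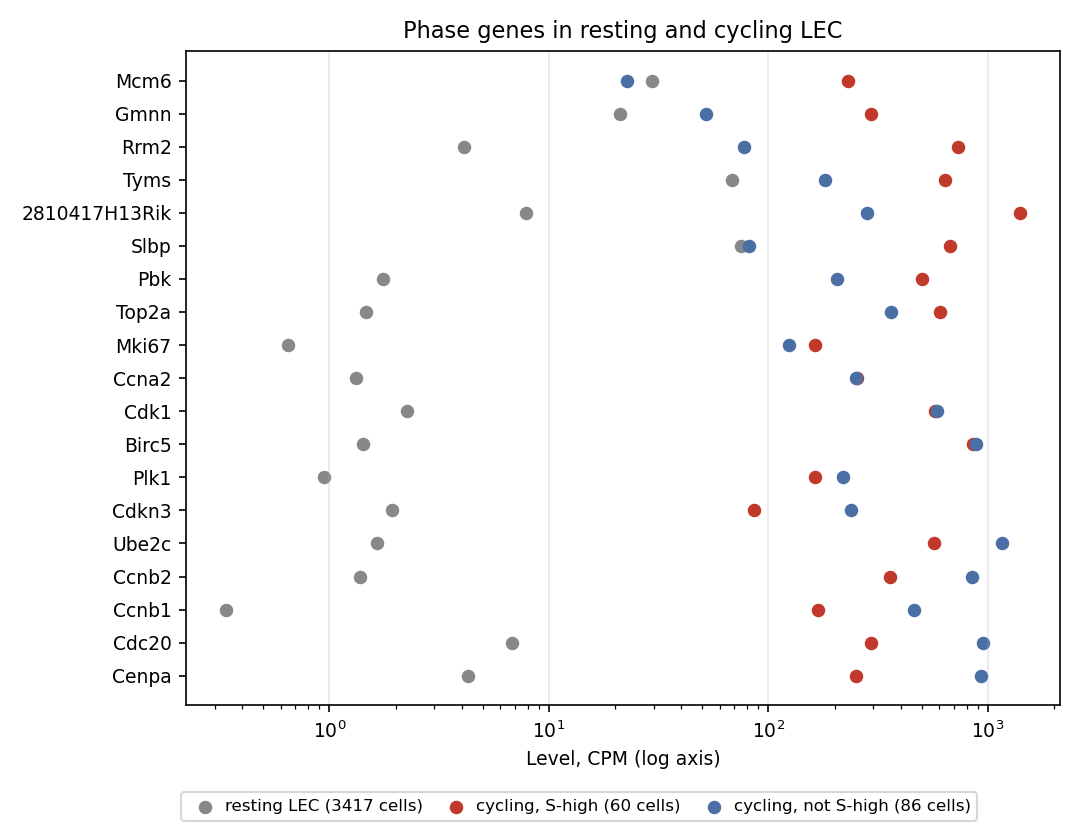
Level in CPM (log axis) of phase genes in resting LEC, in S-high members and in the other members. Replication genes such as Rrm2 are highest in S-high members, Cdk1 and Birc5 are level in both, and Cdc20 and Cenpa are highest in members that are not S-high.

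The 8 members that were neither S-high nor mitotic-high had UMIs of 2 to 7 of the 10 rule genes. Cenpa had a UMI in all 8 and gave 24.5% of their rule UMIs, and Ccnb2 in 6 cells gave 51% of them. Top2a was listed at 0 in these cells.

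The members were next placed among the lymphatic states of the tumor, each given by a few marker genes and named by the first. After thinning to 5000 UMIs, a cell with at least 2 UMIs of a state's markers was counted in it, and a cell could count in several. Of 514 cells with Lsr, Postn or Foxp2, genes of the Lsr state, 9 were cycling (1.75%, 0.804 to 3.30%), against 137 of 3505 other gated LEC (3.91%, 3.29 to 4.60%). In the Npy state 32 of 1122 cells were cycling (2.85%, 1.96 to 4.003%), in the Cd24a state 40 of 1391 (2.88%, 2.06 to 3.90%), in the Cd74 state 28 of 870 (3.22%, 2.15 to 4.62%) and in the Tppp3 state 58 of 1649 (3.52%, 2.68 to 4.52%). Of 657 cells with none of these marks 32 were cycling (4.87%, 3.36 to 6.81%). The 5 states thus all held cycling cells, at shares from 1.75% to 3.52%, and their intervals overlapped. Median depths were 11010 UMIs in cells of the Lsr state and 10542 in the others. Without thinning the order against other cells turned for 4 of the 5 states: it was 4.53% against 2.98% for Npy, 3.77% against 3.49% for Cd24a, 4.05% against 3.44% for Cd74 and 4.05% against 3.21% for Tppp3. The share of cells with no such mark also turned, to 8 of 271 cells (2.95%) against 3.68% of cells with any. No order is read from these shares. The Lsr share kept its order, at 2.65% against 3.89%.

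**Figure D5:**
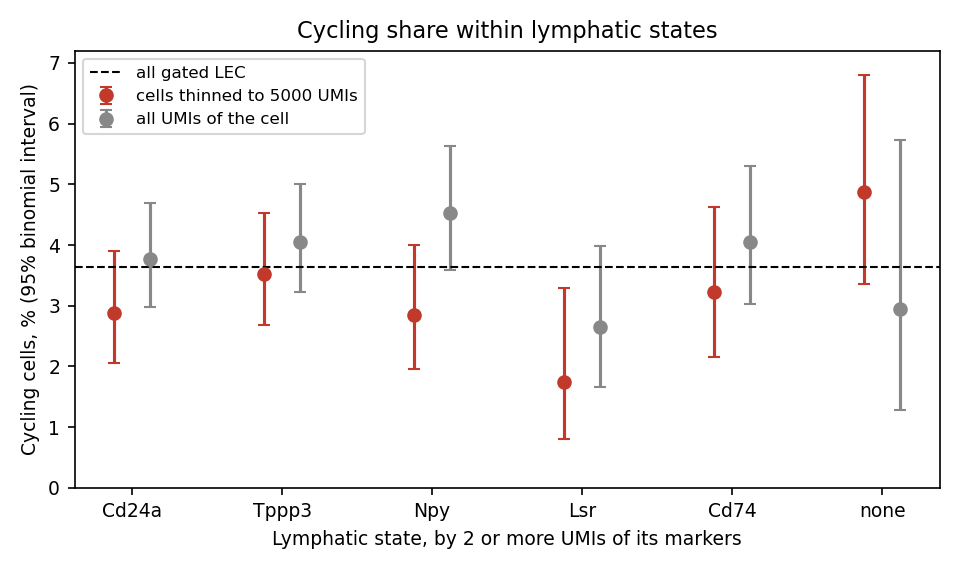
Cycling cells as a percent of gated LEC with at least 2 UMIs of a state's markers, with exact binomial 95% intervals, after thinning to 5000 UMIs (red) and with all UMIs (grey); the dashed line is the 3.63% of all gated LEC. The thinned Lsr share is lowest at 1.75%, and the Npy share moves from 2.85% to 4.53% without thinning.

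By the summed levels, markers of the Lsr state were lower in cycling LEC: Lsr was at 4.797 against 18.5 CPM, Postn at 32.2 against 73.7 CPM and Foxp2 at 14.7 against 37.3 CPM. Without cells with 3 or more blood endothelial UMIs, which left 33 members, the log2 ratio of Lsr turned to 1.08, and Postn and Foxp2 were within 2-fold. In the Cd24a state, Cd24a was 1.56-fold lower and Scn3a was at 115 and 120.1 CPM. Tppp3 was 1.26-fold higher and Igfbp5 2.75-fold lower. Cd74 was 2.07-fold lower, with 52.7% of its UMIs in 1 member, and Vcam1 was at 6.85 against 54.1 CPM, with 80% in 1 member. Among genes with known roles in vessel growth, Angpt2 was 1.63-fold lower, Fgfr1 was at 103 and 111 CPM and Notch1 at 82.9 and 93.9 CPM. Of 10 tip cell genes and 7 MHC class I genes 0 passed 2-fold, and of 8 valve genes 2 were lower. Of 8 Notch genes Nrarp, a Notch target, was 2.04-fold higher and Hey1 and Jag1 were lower, where 6.67% of all genes were higher and 4.0% lower.

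The same rule was applied to the BEC sort, gated by Flt1, Plvap or Esm1 in place of the lymphatic genes. There 187 of 3206 cells were cycling (5.83%, 5.05 to 6.70%), at a median of 26972 UMIs. The sorts were 1 sample each and differ in depth, so the shares are given side by side; after thinning to 5000 UMIs they were 3.56% in LEC and 5.86% in BEC. In BEC 514 of 7333 genes (7.01%) were at least 2-fold higher in cycling cells and 248 (3.38%) lower. Among 6789 genes measured in both sorts, 382 were higher in both, 82.0% of the LEC list and 78.4% of the BEC list. Of the lower genes 54 were shared, 29.5% of the LEC list and 30% of the BEC list. The rule used the same genes in both sorts.

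Mitotic list medians lay close together, at 5.09 in LEC and 5.02 in BEC for the spindle genes and 4.84 and 4.88 for mitotic entry. Of the rule genes Cdk1 differed most, with a ratio of 256 in LEC and 29.5 in BEC. Resting BEC held it at 24.1 CPM and resting LEC at 2.27 CPM. The rule sets these levels in part in both sorts. With LEC classes chosen by the other 9 genes, the Cdk1 ratio in LEC was 80.7, with 7.25 CPM in resting LEC. No such ratio is given for BEC. Nsg1, a gene of endosomal traffic, was 7.51-fold higher in cycling BEC and at 478 and 485 CPM in cycling and resting LEC. The centromere chaperone Hjurp was 5.70-fold higher in BEC and 2.22-fold in LEC. The imprinted gene Mest was 3.55-fold higher in LEC (3.24 to 3.89), at 201 against 56.5 CPM, and at 378 and 399 CPM in BEC. Angpt2, the vessel-destabilising ligand, was at 173 against 841 CPM in BEC and at 211 against 345 CPM in LEC. Tspan13 was 1.67-fold higher in LEC, and its ratio in BEC was 0.445. Opposite calls were made for 2 genes, picked for this after their values were seen: the chaperone Hspb8 was 2.14-fold higher in cycling LEC with a ratio of 0.412 in BEC, and the proteoglycan Sdc1 was 2.09-fold lower in LEC and 2.39-fold higher in BEC. None of these differences between sorts has a test.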

How the data were processed

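The deposited matrix holds the authors' UMI counts, not normalized, for 28692 gene symbols in 7635 cells. The submitters' processing notes name Cell Ranger 2.1.1 and mm10. How the authors filtered the cells was not stated in the labels. The labels' protocols name 10x Chromium 3′ v2 reagents. Cycling and resting cells were selected as given above, UMIs were summed per class, and CPM, log2 ratios with a pseudocount of 1 CPM and shares were computed with Python 3.11.15, numpy 2.4.6, scipy 1.17.1, pandas 2.3.3 and matplotlib 3.10.9. A gene was measured at a mean of 10 CPM or more over both classes and called at 2-fold. Cells were thinned to 5000 UMIs with a fixed seed; no cell was shallower. Depth was 5408 to 46412 UMIs per member, 2918426 UMIs in all, so that a count of 0 allows up to 3 UMIs or about 1 CPM.

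The named genes were the 10 rule genes, the 12 highest and 12 lowest ratios at a mean of 50 CPM or more with a UMI in 25% of the cells of the higher class (without rule genes, mitochondrial, ribosomal and globin genes or unnamed models), the 4 members of each of 45 lists with the highest CPM, all CDK inhibitors and state markers, and 5 genes each way that differed most between the sorts. 1 of the 12 lowest is not reported here. Other genes were picked after their values were seen. The members and lists were chosen with earlier results of these data known. No p-value was computed, as the 4 libraries per sort could not be separated. No doublets were removed. Promoters came from RefSeq (GRCm38.p6) by symbol. The summing, interval and thinning steps were tested on simulated data.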

Additional observations from a re-analysis of the deposited data

Results flagged for a closer look

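Cells of the LEC sort outside the gates also held cycling transcripts, in data that the comparison does not use. Of 388 such cells 22 had at least 15 rule UMIs per 10000 (5.67%, exact Clopper-Pearson interval 3.59 to 8.46%), where a count of 0 would allow up to 0.773%. Of the 279 cells with 20 or more pigment UMIs 17 passed (6.09%), and of the 109 without a lymphatic UMI 5 passed (4.59%).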

How the results depend on the processing

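No paired analysis was possible because the columns carry no library number, and leaving out a library was not possible for the same reason. The number of cycling LEC stayed within 1.5 times of 146 except without cells with 3 or more blood endothelial UMIs (33) and without the deepest 10% of cells (85). The 515 higher and 309 lower genes became 849 and 988 at a minimum mean of 1 CPM, 190 and 87 at 50 CPM, 2303 and 95 in UMIs per cell, and 919 and 796 without cells with 3 or more blood endothelial UMIs; at 50 CPM 93 of the 187 higher cell cycle genes were left, since fewer genes were tested. Lower genes were 123 with a pseudocount of 10 CPM and 120 where the counting interval had to pass 2. The S phase level from 15 to 40 per 10000 was 5.19 times that of resting cells and 4.75 times by the mean of the cells' own shares. The Npy cycling share moved from 2.85% to 4.53% without thinning. Without cells of the Npy state, an alternative added after seeing the data, the log2 ratios of Npy, Ndufa4l2 and Pgf turned to 0.40, 0.82 and 0.91. Those genes also set which cells were removed. Lsr turned to 1.08 without cells with 3 or more blood endothelial UMIs. The cause of these turns was not tested. Of 204 named genes under 32 settings, 6363 values kept their side of 2-fold or moved by under 1 log2 unit, 161 moved and 4 turned.

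S-high members were 86 with the 95th percentile of resting cells and 59 after thinning, against 60. With median-of-ratios size factors the calls were 562 higher and 253 lower. Depth limits genes under about 10 CPM, and 146 cells of 1 pooled sort show no spread between animals.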
